A study of Mus musculus with 12 samples.

Results

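The presynaptic vesicle release machinery was examined as 42 genes of the 26409 in the hippocampal expression table. They were chosen by symbol, for what their proteins do at the nerve terminal, and with earlier results of these data known. The Ensembl identifiers of all 42 matched GENCODE M21, the annotation of the mouse build GRCm38. Bulk RNA sequencing had been done on the microdissected hippocampus of 12 mice, aged between 6 and 12 months, and there were 4 groups of 3 libraries, WT and *Dek* cKO of either sex. *Dek* codes for a chromatin protein. The labels call the mutant mice DEK KO, and the study calls them *Dek* cKO, for constitutive knockout. Exons 3 and 4 of *Dek*, flanked by loxP sites, had been deleted in the germline with CMV-Cre, a Cre active in all tissues, on the C57Bl/6 background. The Cre transgene was then bred out and the line was kept by heterozygous matings, so every cell of a cKO mouse carried the deletion from conception. Library names begin with C57 in the female WT group and with CMV in the other 3 groups, so that this difference in names and the genotype cannot be told apart within females. For the same reason it cannot be told apart from sex within WT, or from the interaction of sex and genotype. The question here was whether RNA levels of the release machinery differed between *Dek* cKO and WT hippocampus, and whether any difference was the same in both sexes.

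*Dek* itself was measured at 48.3 ± 2.58 TPM in WT and at 7.23 ± 1.32 TPM in cKO libraries (SD, n = 6 each), with no overlap between the genotypes. TPM, a transcript's share of the library after correction for transcript length, is the unit of all levels here. The table lists no read counts, so the depth of each library is unknown, and its columns summed to between 825750 and 845553 TPM. The sex labels of 2 libraries went against the Y-linked genes *Eif2s3y* and *Ddx3y*. The library labelled female cKO 3 held 72.7 TPM of *Eif2s3y* and 20.4 TPM of *Ddx3y*, levels of the male WT libraries, and the library labelled male cKO 1 held 0.111 TPM of *Eif2s3y* and was listed at 0 for *Ddx3y*. The results by sex are therefore also given without these 2 libraries. Apart from sex, 3 cKO libraries stood apart. Female cKO 1 and female cKO 2 held 208 and 179 TPM of 7 cortex markers in sum, against 89.0 to 129 TPM in the other 10 libraries, and male cKO 3 held 529 TPM of *Npy*, a neuropeptide of inhibitory neurons, and 1267 TPM of *Gfap*, an astrocyte filament, against 108 to 141 and 208 to 437 TPM in the other 11. Of the other astrocyte markers, *Aqp4* was also highest in male cKO 3, at 99.4 TPM (others 43.3 to 57.3), and *Gja1* was lowest, at 68.6 TPM (others 116 to 151). Of the other inhibitory neuron markers, *Gad2* and *Lhx6* were highest in that library, and *Slc32a1* and *Erbb4* were lowest. The median deviation of the list from the median library was 0.024 on the log2 scale for inhibitory neurons and -0.0077 for astrocytes in male cKO 3.

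In a nerve terminal, transmitter is loaded into vesicles by transporters in the vesicle membrane, and the vesicles are held near the release site by synapsins and by Rab3 GTPases with their effectors. At the active zone, the large scaffolds Bassoon and Piccolo organise RIM, ERC, liprin and Munc13 proteins, which dock and prime vesicles beside calcium channels. Fusion is driven by the SNARE proteins synaptobrevin on the vesicle and syntaxin and SNAP-25 on the plasma membrane, clamped by complexins and triggered when synaptotagmins bind calcium. NSF and its SNAP adaptors then take the SNARE complex apart. The excitatory synapses of the hippocampus depend on this machinery for release during learning. Neurons make RNA of these genes in cell bodies within the dissected tissue, and bulk tissue does not separate it from RNA that other cells make of the same genes. In bulk tissue, fewer cells of a type and less RNA per cell cannot be told apart.

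The release genes were among the more abundant transcripts of the hippocampus. The median of their mean levels was 99.7 TPM, against 9.60 TPM over the 18197 genes tested, and 40 of the 42 lay above the median of all genes. Mean levels were at least 500 TPM for 8 genes, 100 to 500 TPM for 13, 20 to 100 TPM for 13 and under 20 TPM for 8. The 6 highest were the SNARE gene *Snap25* at 1742 TPM, the vesicle membrane gene *Syp* at 873, the vesicular glutamate transporter *Slc17a7* at 787, the synaptobrevin *Vamp2* at 746, *Rab3a* at 649 and the fast calcium sensor *Syt1* at 639 TPM. Below *Snap25*, the ranges of neighbours in that order over the 12 libraries lay over each other, as at 549 to 705 TPM for *Rab3a* and 535 to 693 TPM for *Syt1*. At the other end, *Unc13c*, a Munc13 gene of cerebellar granule cells, averaged 0.205 TPM and was listed at 0 in 5 libraries, so no fold change is given for it. In sum the 42 genes made up 9354 to 10511 TPM of a library, with a median of 10157 TPM in WT and 10102 TPM in cKO.

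**Figure D1:**
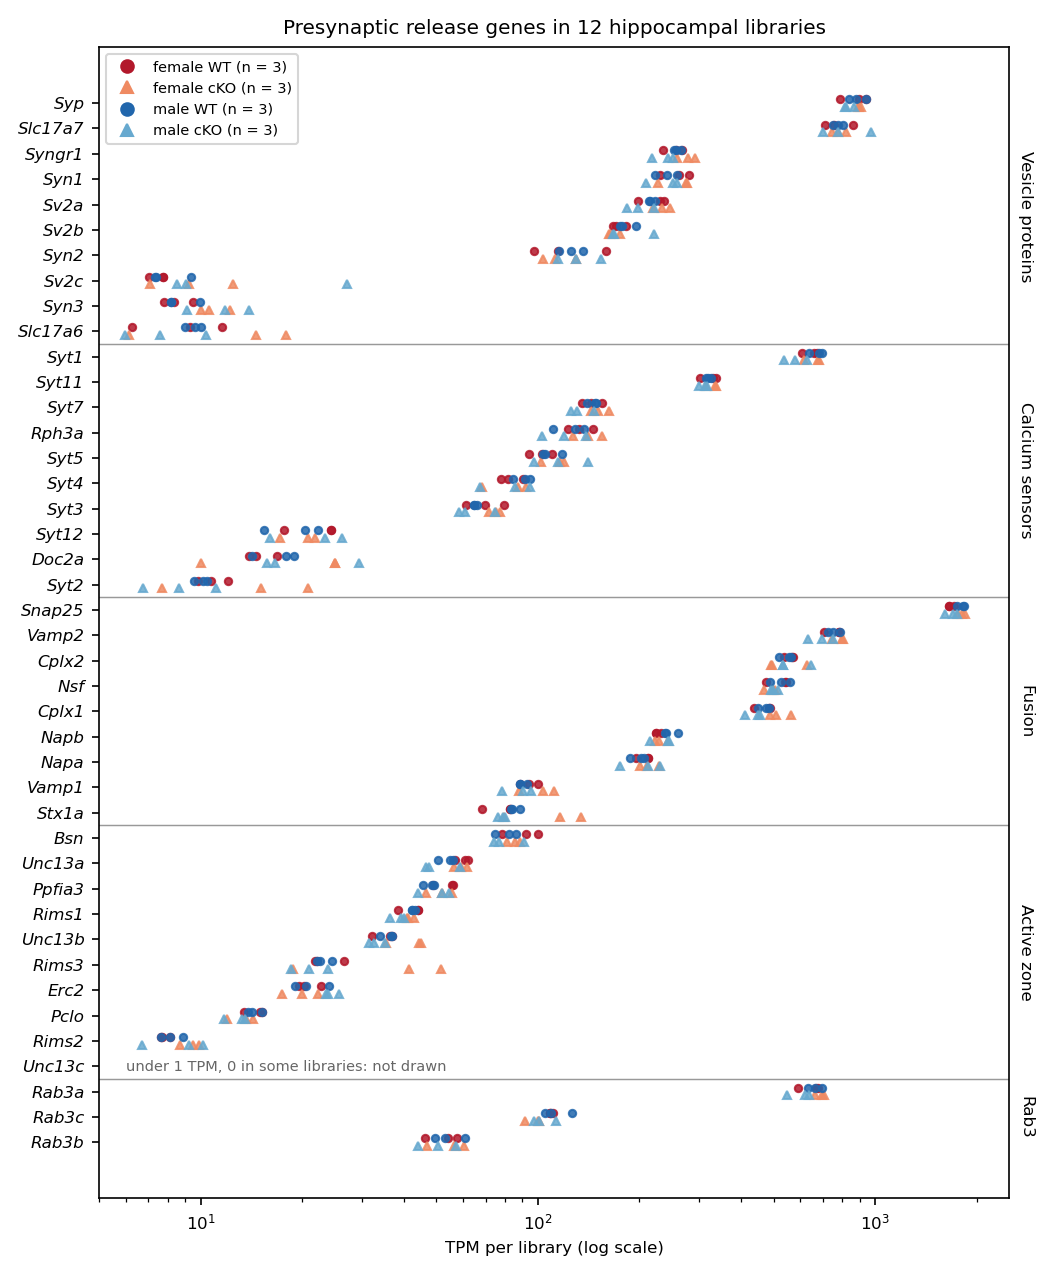
Level of each release gene in each of the 12 libraries, in TPM on a log scale, grouped by role and ordered by mean level within a role; circles are WT and triangles cKO, and *Unc13c* is not drawn. Most genes hold all 12 libraries in a narrow band, and *Sv2c*, *Slc17a6*, *Syt2*, *Doc2a*, *Stx1a* and *Rims3* have single cKO libraries far from the rest.

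With both sexes together, 0 of the 42 release genes passed the test between *Dek* cKO and WT, which asked for an adjusted p under 0.05 in limma and a fold change over 1.2. Of all 18197 genes tested, 27 passed, or 0.148%. At an unadjusted p under 0.05 stood 3 of the 42, 1 higher and 2 lower in cKO, against 6.64% of all genes (4.84% higher and 1.8% lower). The median log2 fold change of the 42 was 0.0015, with 22 estimates above 0 and 20 below, and that of all genes was 0.016, with 44.2% below 0. In 0 of the 42 genes did the 6 cKO values lie wholly on one side of the 6 WT values, against 0.676% of all genes. The smallest adjusted p was 0.351, for *Syn3*. These p-values measure the spread between the libraries, 1 for each mouse as labelled.

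With both sexes together, the data also bound how large a difference could have gone unseen. The 95% interval of the log2 fold change lay within 1.2-fold in either direction for 27 of the 42 genes, against 36.6% of all genes tested, and within 2-fold for 40. For *Snap25* it ran from -0.095 to 0.10, for *Syt11* from -0.10 to 0.078, for *Napb* from -0.13 to 0.078 and for *Nsf* from -0.17 to 0.026. The exceptions at 2-fold were *Unc13c* and *Sv2c*, the latter with an interval from -0.052 to 1.05. Wide intervals also belonged to *Slc17a6* (-0.50 to 0.62), *Rims3* (-0.29 to 0.70), *Syt2* (-0.44 to 0.54) and *Doc2a* (-0.21 to 0.73), for which a 1.2-fold difference was not detectable in these libraries. Within a sex the bounds were wider, and 15 of the 42 intervals in females and 12 in males lay within 1.2-fold (shares of all genes not given here). For *Snap25* the interval ran from -0.016 to 0.23 in females and from -0.22 to 0.025 in males.

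**Figure D2:**
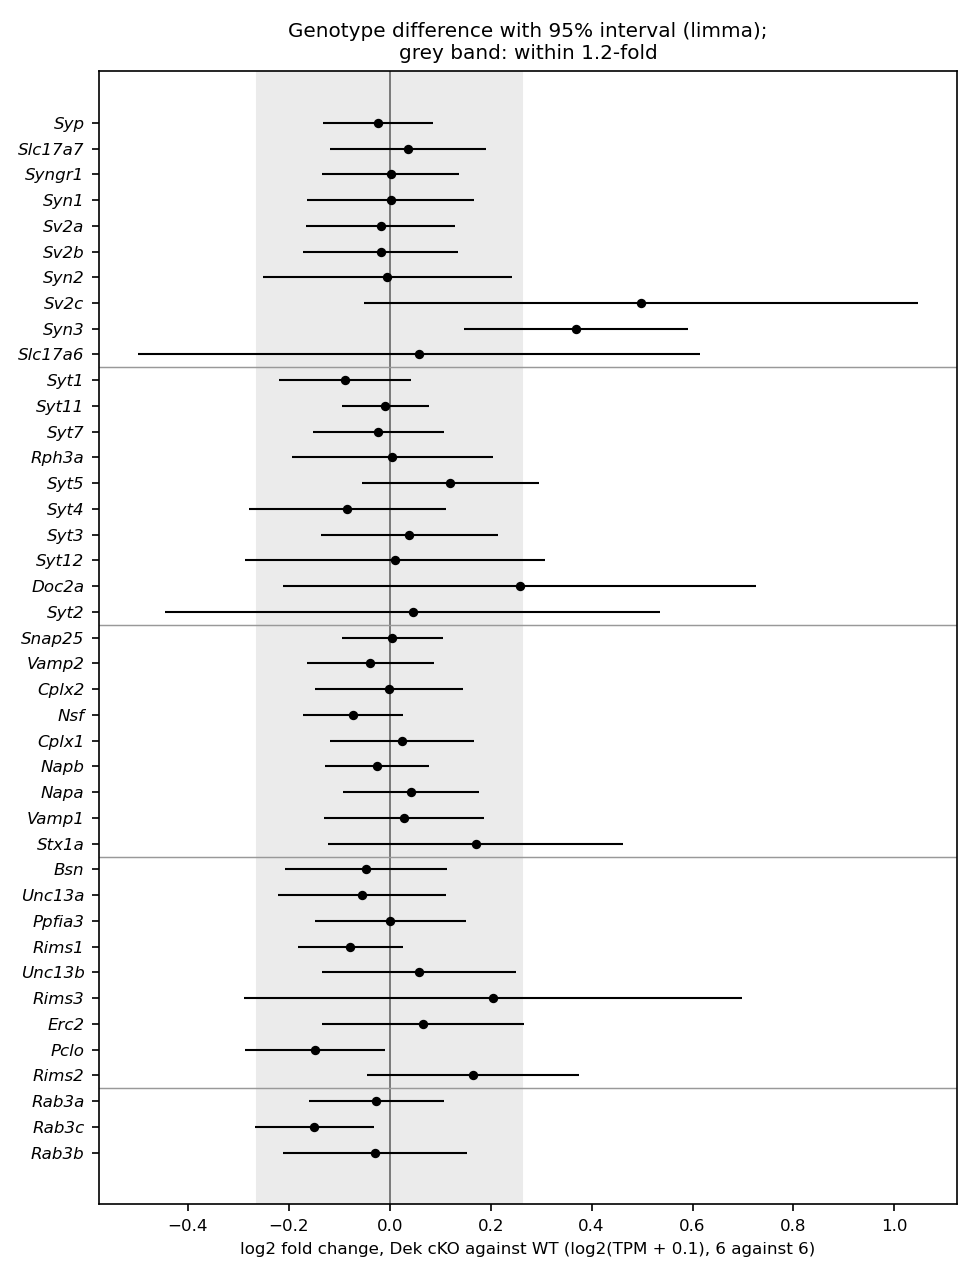
Log2 fold change of each release gene except *Unc13c*, *Dek* cKO against WT with 6 libraries each, on the log2(TPM + 0.1) scale; points are limma estimates, bars their 95% intervals, and the grey band marks 1.2-fold in either direction. The bars of 27 genes end inside the band, and those of *Syn3*, *Rab3c* and *Pclo* do not cross 0, although no gene passed the adjusted threshold.

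Of the 10 vesicle membrane genes, 0 passed, and their median log2 fold change was 0.0016. *Syn3* (ENSMUSG00000059602, chr10:86055125-86498896, minus strand) codes for synapsin III, the scarcest of the 3 synapsins that tether vesicles to each other and to actin. Its levels were 8.32, 9.46 and 7.79 TPM in the female WT libraries, 10.003, 10.6 and 12.2 TPM in female cKO, 8.17, 9.96 and 8.18 TPM in male WT and 11.8, 9.13 and 13.9 TPM in male cKO. Its mean was 8.65 ± 0.857 TPM in WT and 11.3 ± 1.71 TPM in cKO, all 6 cKO values were above the WT median of 8.25 TPM, and the genotypes overlapped through male cKO 2 (log2 fold change 0.37, SE 0.10, adjusted p = 0.351). The 2 abundant synapsins differed less, with 249 ± 21.6 TPM in WT and 249.8 ± 27.1 TPM in cKO for *Syn1* (log2 fold change 0.0016, SE 0.077, adjusted p = 0.999) and 125 ± 21.2 TPM in WT and 124 ± 17.9 TPM in cKO for *Syn2* (log2 fold change -0.0049, SE 0.11, adjusted p = 0.999).

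The SV2 genes code for transporter-like glycoproteins of the vesicle membrane, of which SV2A binds the antiseizure drug levetiracetam. *Sv2c* (ENSMUSG00000051111, chr13:95954594-96132577, minus strand) held 7.01, 7.75 and 7.72 TPM in the female WT libraries, 9.26, 7.09 and 12.4 TPM in female cKO, 7.34, 9.36 and 7.39 TPM in male WT and 8.52, 9.08 and 27.2 TPM in male cKO. Male cKO 3 was the highest at 27.2 TPM and female cKO 3 the next at 12.4 TPM, with the other 10 libraries between 7.01 and 9.36 TPM. The fitted difference (log2 fold change 0.50, SE 0.25, adjusted p = 0.795) was 0.24 without male cKO 3. *Sv2a* was at 199 to 236 TPM (median 219) in the 6 WT libraries and 184 to 247 TPM (median 220.4) in the 6 cKO libraries (log2 fold change -0.018, SE 0.068, adjusted p = 0.989). *Sv2b* was at 167 to 195 TPM (median 176) in the 6 WT libraries and 162 to 222 TPM (median 168) in the 6 cKO libraries (log2 fold change -0.018, SE 0.071, adjusted p = 0.990), and again male cKO 3 was the highest. *Syp*, for synaptophysin, had 881 ± 59.7 TPM in WT and 866 ± 38.3 TPM in cKO (log2 fold change -0.024, SE 0.051, adjusted p = 0.978), and *Syngr1*, for synaptogyrin, had 256 ± 11.9 TPM in WT and 257 ± 25.9 TPM in cKO (log2 fold change 0.0017).

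*Slc17a7* and *Slc17a6* code for the vesicular glutamate transporters VGLUT1, of cortical and hippocampal pyramidal and granule cells, and VGLUT2, of the thalamus and other subcortical regions and of some cortical neurons. *Slc17a7* was at 709 to 858 TPM (median 766) in the 6 WT libraries and 698 to 969 TPM (median 777) in the 6 cKO libraries (log2 fold change 0.036, SE 0.072, adjusted p = 0.973). *Slc17a6* held 9.32, 11.5 and 6.26 TPM in the female WT libraries, 17.9, 14.6 and 6.12 TPM in female cKO, 10.02, 9.01 and 9.63 TPM in male WT and 10.3, 7.60 and 5.96 TPM in male cKO. The 2 highest values, in female cKO 1 and female cKO 2, and the 2 lowest, in male cKO 3 and female cKO 3, were all in cKO libraries (log2 fold change 0.058, SE 0.26, adjusted p = 0.994).

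Among the 10 calcium sensors and their relatives, 0 passed, with a median log2 fold change of 0.0074. *Syt1*, the sensor of fast synchronous release in forebrain neurons, was at 606 to 693 TPM (median 666) in the 6 WT libraries and 535 to 684 TPM (median 621) in the 6 cKO libraries (log2 fold change -0.089, SE 0.061, adjusted p = 0.867). *Syt2*, its counterpart in brainstem and in fast inhibitory neurons, held 10.7, 12.04 and 9.84 TPM in the female WT libraries, 20.8, 15.1 and 7.66 TPM in female cKO, 10.2, 9.57 and 10.4 TPM in male WT and 11.1, 6.73 and 8.64 TPM in male cKO (log2 fold change 0.046, SE 0.23, adjusted p = 0.994). As for *Slc17a6*, female cKO 1 and female cKO 2 were the 2 highest libraries. *Syt7*, a slower sensor of asynchronous release and facilitation, varied only from 125 to 163 TPM over the 12 libraries (log2 fold change -0.022, SE 0.061, adjusted p = 0.982).

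*Doc2a*, for a high-affinity calcium sensor of spontaneous and asynchronous release, held 14.6, 16.8 and 13.9 TPM in the female WT libraries, 24.98, 24.9 and 10.03 TPM in female cKO, 14.2, 18.9 and 17.9 TPM in male WT and 15.7, 16.6 and 29.4 TPM in male cKO. Its 3 highest values, in male cKO 3, female cKO 1 and female cKO 2, and its lowest, in female cKO 3, came from cKO mice, and the WT values lay between (log2 fold change 0.26, SE 0.22, adjusted p = 0.909). *Syt5* was at 94.01 to 118 TPM (median 104) in the 6 WT libraries and 97.5 to 141 TPM (median 116) in the 6 cKO libraries (log2 fold change 0.12, SE 0.081, adjusted p = 0.864), and *Syt4*, for a synaptotagmin that is not a sensor of fast release, at 77.96 to 94.6 TPM (median 87.4) in the 6 WT libraries and 67.2 to 94.7 TPM (median 86.2) in the 6 cKO libraries (log2 fold change -0.084, SE 0.090, adjusted p = 0.934). *Syt3*, *Syt11*, *Syt12* and *Rph3a*, the last for the Rab3 effector rabphilin, had log2 fold changes of 0.039, -0.0087, 0.010 and 0.0050.

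Of the 9 SNARE and fusion genes 0 passed, and the intervals of 8 lay within 1.2-fold. *Snap25* (ENSMUSG00000027273, chr2:136713453-136782428, plus strand), the most abundant release gene, held 1658, 1655 and 1717 TPM in the female WT libraries, 1812, 1763 and 1841 TPM in female cKO, 1823, 1830.0 and 1753 TPM in male WT and 1608, 1702 and 1747 TPM in male cKO. As labelled, the 3 cKO values were above the 3 WT values in females and below them in males, and with both sexes together the genotypes overlapped (log2 fold change 0.0049, SE 0.046, adjusted p = 0.998). The highest female and the lowest male cKO value were those of female cKO 3 and male cKO 1, the libraries whose Y-linked genes went against their labels. The value of female cKO 3 exceeded all 3 male WT values and that of male cKO 1 lay below all 3 female WT values, so neither separation would hold with these 2 libraries exchanged between the sexes. The other 2 cKO values of each sex were on the sides named. The share of all genes with such a separation of 3 against 3 libraries was not counted. *Vamp2*, the main synaptobrevin of forebrain vesicles, was at 707 to 785 TPM (median 764) in the 6 WT libraries and 634 to 803 TPM (median 747) in the 6 cKO libraries (log2 fold change -0.038, SE 0.058, adjusted p = 0.957), and its relative *Vamp1* at 88.5 to 99.8 TPM (median 90.9) in the 6 WT libraries and 78.1 to 111 TPM (median 92.9) in the 6 cKO libraries (log2 fold change 0.028, SE 0.074, adjusted p = 0.982). *Stx1a* (ENSMUSG00000007207, chr5:135023482-135051100, plus strand), for the plasma membrane SNARE syntaxin 1A, held 68.5, 82.6 and 82.6 TPM in the female WT libraries, 134, 116 and 79.2 TPM in female cKO, 84.04, 88.7 and 82.9 TPM in male WT and 78.7, 79.6 and 75.9 TPM in male cKO. Female cKO 1 and female cKO 2 exceeded every other library, and the remaining 4 cKO libraries lay between 75.9 and 79.6 TPM (log2 fold change 0.17, SE 0.14, adjusted p = 0.899). Those 4 were within the WT range only through female WT 1, at 68.5 TPM, with the other WT libraries at 82.6 to 88.7 TPM.

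The complexins bind the assembled SNARE complex and both hold back and promote fusion. *Cplx1* was at 436 to 488 TPM (median 479) in the 6 WT libraries and 412 to 564 TPM (median 472) in the 6 cKO libraries (log2 fold change 0.024, SE 0.066, adjusted p = 0.982), and *Cplx2* at 520.1 to 569 TPM (median 559) in the 6 WT libraries and 492 to 644 TPM (median 533) in the 6 cKO libraries (log2 fold change -0.0018, SE 0.068, adjusted p = 0.999). For *Cplx2* the 2 highest and the 2 lowest libraries were all cKO, at 644 TPM in male cKO 3, 628 in female cKO 3, 493.2 in female cKO 1 and 492 in female cKO 2. The disassembly ATPase gene *Nsf* was at 475 to 558 TPM (median 534) in the 6 WT libraries and 468 to 515 TPM (median 498) in the 6 cKO libraries (log2 fold change -0.073, SE 0.046, adjusted p = 0.854). Its adaptors *Napa* and *Napb*, for alpha-SNAP and beta-SNAP, had log2 fold changes of 0.042 and -0.025, with SEs of 0.062 and 0.048.

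Of the 10 active zone genes 0 passed, and their median log2 fold change was -0.023. *Pclo* (ENSMUSG00000061601, chr5:14514918-14863459, plus strand), for the scaffold Piccolo, held 13.4, 15.003 and 15.2 TPM in the female WT libraries, 14.3, 13.6 and 11.9 TPM in female cKO, 14.2, 15.2 and 13.8 TPM in male WT and 13.5, 13.3 and 11.7 TPM in male cKO. Its 2 lowest values were in male cKO 3 and female cKO 3, and the genotypes overlapped (log2 fold change -0.15, SE 0.064, adjusted p = 0.712). Its partner scaffold *Bsn*, for Bassoon, was at 85.7 ± 9.43 TPM in WT and 82.8 ± 6.70 TPM in cKO (log2 fold change -0.047). *Rims1*, for the central RIM protein that links Rab3, Munc13 and calcium channels, was at 38.4 to 44.02 TPM (median 42.8) in the 6 WT libraries and 36.5 to 42.8 TPM (median 40.5) in the 6 cKO libraries (log2 fold change -0.078, SE 0.049, adjusted p = 0.854). *Rims2* was at 7.60 to 8.84 TPM (median 7.88) in the 6 WT libraries and 6.71 to 10.2 TPM (median 9.36) in the 6 cKO libraries (log2 fold change 0.16, SE 0.10, adjusted p = 0.846), with male cKO 1 the lowest of all libraries and male cKO 3 the highest.

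*Rims3* (ENSMUSG00000032890, chr4:120854816-120896579, plus strand) codes for a short RIM that carries only the last of the family's domains. Its levels were 22.1, 26.6 and 21.8 TPM in the female WT libraries, 51.7, 41.4 and 18.7 TPM in female cKO, 22.1, 22.6 and 24.5 TPM in male WT and 23.9, 20.9 and 18.5 TPM in male cKO. Female cKO 1 and female cKO 2 were above all others, female cKO 3 and male cKO 3 were the lowest, and the 6 WT libraries spanned 21.8 to 26.6 TPM (log2 fold change 0.21, SE 0.23, adjusted p = 0.936). The vesicle priming genes *Unc13a* and *Unc13b*, for Munc13-1 and Munc13-2, were at 56.9 ± 4.10 TPM in WT and 54.9 ± 6.39 TPM in cKO (log2 fold change -0.056, SE 0.077, adjusted p = 0.9504) and at 35.6 ± 2.03 TPM in WT and 37.3 ± 5.88 TPM in cKO (log2 fold change 0.058, SE 0.089, adjusted p = 0.959). For *Unc13b* the 2 highest libraries were once more female cKO 1 and female cKO 2, at 45.1 and 44.3 TPM, against 31.5 to 37.0 TPM in the others. *Erc2* and *Ppfia3*, for the scaffolds CAST and liprin-alpha-3, had log2 fold changes of 0.066 and 0.0014.

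The 3 Rab3 genes code for vesicle GTPases that recruit RIM and rabphilin, and all 3 estimates were below 0, with 0 that passed. *Rab3c* (ENSMUSG00000021700, chr13:110054187-110280996, minus strand) held 108, 111 and 109 TPM in the female WT libraries, 91.5, 100.2 and 101 TPM in female cKO, 105, 126 and 109.7 TPM in male WT and 97.5, 113 and 101 TPM in male cKO. In females the 3 cKO values lay below the 3 WT values, while in males they overlapped, and over both sexes male cKO 2 reached into the WT range (log2 fold change -0.15, SE 0.055, adjusted p = 0.623). How many of all genes separate so at 3 against 3 libraries was not counted. The difference was of like size in both sexes, at -0.17 in females and -0.13 in males. *Rab3a* and *Rab3b* were at 589 to 696 TPM (median 667) in the 6 WT libraries and 549 to 705 TPM (median 648) in the 6 cKO libraries (log2 fold change -0.027, SE 0.062, adjusted p = 0.979) and at 46.3 to 60.8 TPM (median 53.6) in the 6 WT libraries and 44.2 to 60.2 TPM (median 53.4) in the 6 cKO libraries (log2 fold change -0.029, SE 0.085, adjusted p = 0.983).

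Within each sex 3 cKO were compared with 3 WT libraries, and 0 release genes passed in females or in males, against 0.0165% of all genes in each. In females 3 of the 42 stood at an unadjusted p under 0.05, all higher in cKO, against 5.79% of all genes in either direction and 3.91% in that direction. In males 2 did, 1 higher and 1 lower, against 5.45% of all genes (3.68% higher and 1.78% lower). The female 3 were *Stx1a* (log2 fold change 0.47, SE 0.15, adjusted p = 0.749), *Unc13b* (log2 fold change 0.23, SE 0.10, adjusted p = 0.845) and *Syn3* (log2 fold change 0.35, SE 0.16, adjusted p = 0.852), and the male 2 were *Syn3* (log2 fold change 0.38, SE 0.16, adjusted p = 0.880) and *Syt1* (log2 fold change -0.21, SE 0.074, adjusted p = 0.880). *Syn3* thus had like estimates in both sexes, and its interaction term was 0.031 with an SE of 0.22. *Rims3* had the largest female estimate (log2 fold change 0.55, SE 0.28, adjusted p = 0.876). *Sv2c* had the largest male estimate (log2 fold change 0.68, SE 0.37, adjusted p = 0.880), and it was 0.14 without male cKO 3.

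The estimates leaned in different directions in the 2 sexes. In females 28 of the 42 log2 fold changes were above 0, and 14 below, against 45.7% of all genes below 0, with a median of 0.045 (all genes 0.015), and in males 28 were below 0, against 44.8% of all genes, with a median of -0.073 (all genes 0.020). Without female WT 1 the female median was -0.000054. With any 1 library left out it ran from there to 0.087, and the male median from -0.11 to -0.038. The difference itself was tested as the interaction of sex and genotype, from which the library names of the female WT group cannot be told apart. There 0 of the 42 passed, as did 0 of the 18197 genes, and 7 stood at an unadjusted p under 0.05, all with the lower genotype difference in males, against 4.23% of all genes in either direction and 2.16% in that direction. They were *Stx1a* (-0.59, SE 0.22), *Unc13b* (-0.35), *Syngr1* (-0.25), *Cplx1* (-0.24), *Rab3a* (-0.23), *Syt1* (-0.23) and *Snap25* (-0.20, SE 0.079), each a difference of log2 fold changes with an adjusted p of 0.966. The median of the interaction over the 42 was -0.11 with 29 estimates below 0, against 0.0068 over all genes with 48.7% below 0. These 7 genes are named because of these p-values.

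The results by sex moved with single libraries. Without the 2 libraries whose sex markers went against their labels, 8 of the 42 stood at an unadjusted p under 0.05 in females, 9 in males and 13 in the interaction, still with 0 that passed. The female difference then was 0.98 for *Rims3* (adjusted p = 0.0613) and 0.69 for *Stx1a* (adjusted p = 0.0754). *Syn3* had 0.27 in females and 0.36 in males, and *Syt1* -0.26 in males. That fit leaves female cKO 1 and female cKO 2 as the only female cKO libraries, and male cKO 2 and male cKO 3 as the only male ones. Without female cKO 1 and male cKO 3, 2 of the libraries that stood apart, the counts fell to 1, 0 and 1, and the female difference was 0.25 for *Rims3* and 0.31 for *Stx1a*. This second fit kept female cKO 3 and male cKO 1, so the cKO group of each sex held a library whose Y-linked genes went against its label. For neither fit is the share of all genes at that threshold given here, so these counts cannot be read as particular to the release genes. In WT mice, 0 of the 42 genes differed between males and females at an unadjusted p under 0.05 (all genes 3.63%), and their estimates ran from -0.19 to 0.16. Library names begin with C57 in WT females and with CMV in WT males, so sex and names cannot be told apart in this comparison.

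**Figure D3:**
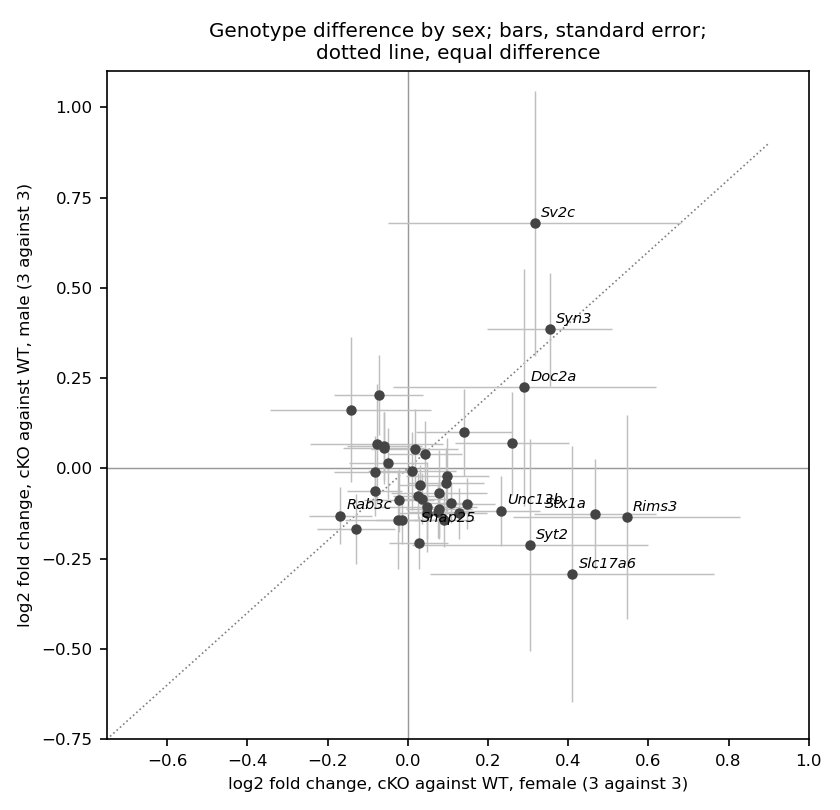
Log2 fold change of each release gene except *Unc13c*, *Dek* cKO against WT, in females on the x axis and in males on the y axis; each is 3 against 3 libraries, bars are standard errors and the dotted line marks equal differences. Many points lie right of 0 on the x axis and below 0 on the y axis, *Stx1a* and *Rims3* lie far to the right, and *Syn3* lies close to the dotted line.

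Single libraries stood apart for many of the release genes. Over the 41 genes other than *Unc13c*, female cKO 1 was the highest of the 12 libraries for 10 genes (12% of all genes measured above 0 in every library), and male cKO 3 was the highest for 10 (20.8%) and the lowest for 14 (17.3%). Male cKO 2 was the lowest for 11 (11%), and female WT 3 the highest for 8 (5.23%). In 8 of the 42 genes the values of female cKO 1 and female cKO 2 were both above those of the other 10 libraries, against 5.82% of all genes tested and 7.07% of those that averaged 5 TPM or more. These were *Rims3*, *Stx1a*, *Syt2*, *Slc17a6*, *Unc13b*, *Vamp1*, *Vamp2* and *Syngr1*, and they were found by looking for such values. Beside them, 4 of the 7 cortex markers showed the same 2 libraries above all others, *Tbr1* at 52.1 and 41.3 TPM against 17.4 to 32.7 TPM, and *Cux2*, *Lamp5* and *Rspo1* likewise. *Rspo1* was at 6.27 and 4.54 TPM there and at 0.522 to 2.21 TPM in the others. The study itself reports *Rspo1* as raised in female cKO mice, with a trend in its qRT-PCR. The same held for 3 of the 15 thalamus and habenula markers. *Tnnt1* was at 11.3 and 9.46 TPM against 1.64 to 8.16 TPM, *Rgs16* at 11.7 and 10.2 TPM against 5.06 to 8.12 TPM, and the third, *Gbx2*, stayed under 1 TPM. Others of the list did not follow, and *Lhx9* was lowest in these 2 libraries, at 5.99 and 6.57 TPM against 7.31 to 10.1 TPM. The list summed to 136 TPM in female cKO 1 and 157 TPM in female cKO 2, and to 124 to 165 TPM in WT. The part that tissue from the neighbouring cortex or thalamus had in these values was not tested.

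**Figure D4:**
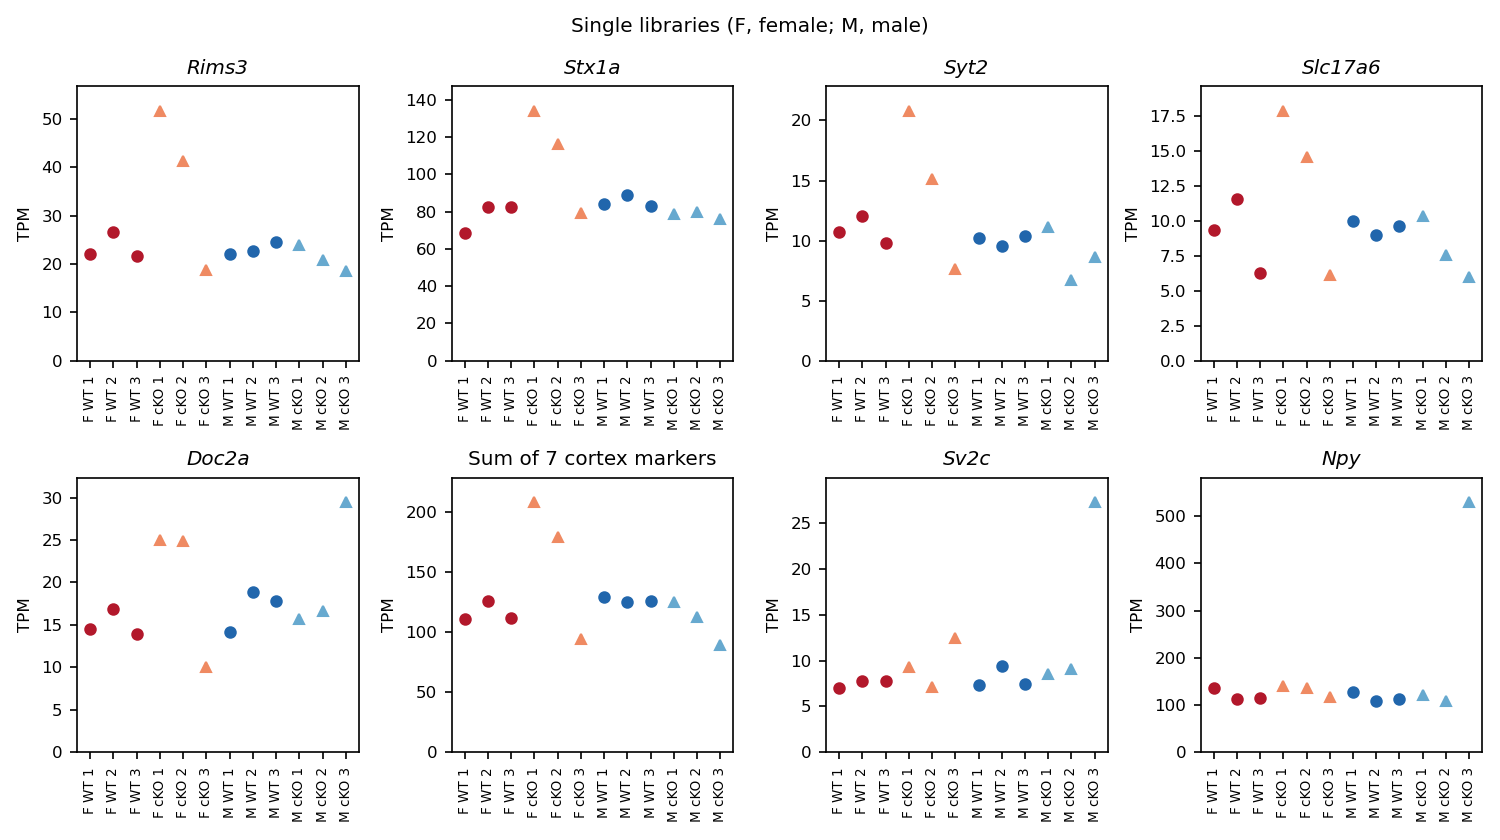
Level in TPM of 6 release genes, of *Npy* and of the sum of 7 cortex markers in each of the 12 libraries, on linear axes from 0; F is female and M is male, circles are WT and triangles cKO. Female cKO 1 and female cKO 2 are the highest for *Rims3*, *Stx1a*, *Syt2*, *Slc17a6* and the cortex markers, and male cKO 3 is the highest for *Doc2a*, *Sv2c* and *Npy*.

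Male cKO 3 had another profile. It held the highest level of *Sv2c*, *Sv2b*, *Syn3*, *Slc17a7*, *Syt5*, *Doc2a*, *Rims2*, *Erc2*, *Cplx2* and *Napa*, and the lowest of *Syt1*, *Vamp2*, *Rab3a*, *Sv2a*, *Syngr1* and *Slc17a6*, among others. *Slc17a7* stood at 969 TPM there, against 698 to 858 TPM in the others, and *Vamp2* at 634 TPM, against 694 to 803 TPM. In the same library *Prox1*, a transcription factor of dentate granule cells, was at 4.95 TPM, against 1.29 to 2.97 TPM. The other markers on its list did not all follow. Of its 8 markers male cKO 3 was the highest library for 2 and the lowest for 2. The latter were *Lct* at 4.51 TPM (others 8.74 to 19.2) and *Tdo2* at 1.96 TPM (others 2.45 to 8.83). The median deviation from the median library was -0.028 on the log2 scale. Male cKO 3 was the highest for 3 of 9 inhibitory neuron markers and the lowest for 2. It was also the highest for 2 of 8 astrocyte markers, *Gfap* and *Aqp4*, and the lowest for 1, *Gja1*, at 68.6 TPM (others 116 to 151). Cortex markers were lowest there in sum, at 89.0 TPM. The part of these cell types in the values of the release genes was not tested.

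**Figure D5:**
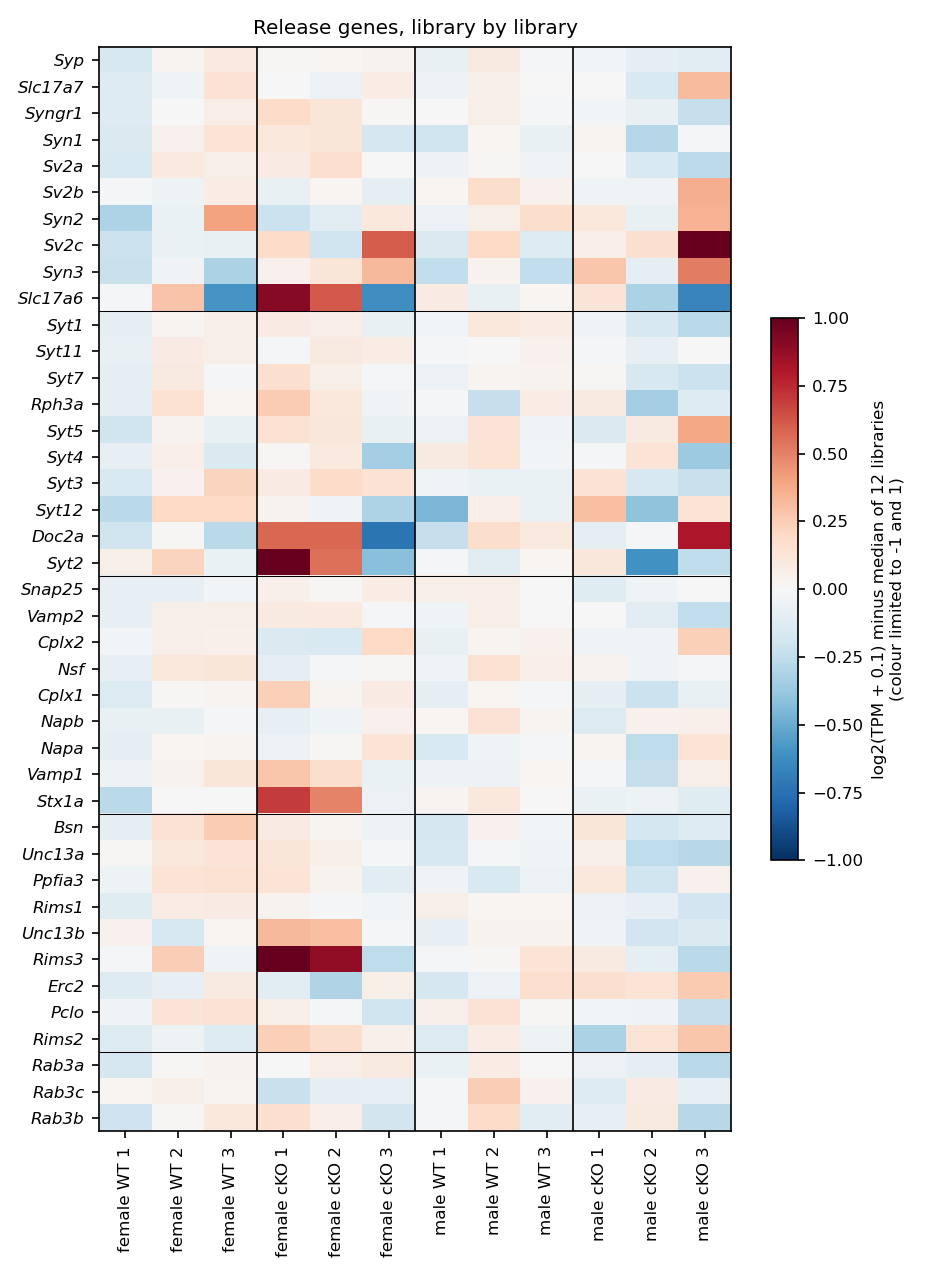
Level of each release gene except *Unc13c* in each library as log2(TPM + 0.1) minus the median of the 12 libraries, red higher and blue lower, with colours limited to -1 and 1. Rows are grouped by role and columns by group. The strongest colours sit in female cKO 1, female cKO 2, female cKO 3 and male cKO 3, and for *Syt2* also in male cKO 2. The WT columns are paler, with the exception of *Slc17a6* in female WT 3.

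The spread between libraries of a genotype was larger in cKO than in WT for 36 of the 42 release genes (85.7%), against 67.1% of all genes tested and 74.2% of the 10856 genes that averaged 5 TPM or more. The median SD on the log2 scale was 0.170 in cKO and 0.097 in WT. For *Rims3* it was 0.63 against 0.11, for *Syt2* 0.62 against 0.12, for *Sv2c* 0.69 against 0.14 and for *Stx1a* 0.35 against 0.13. Exceptions were *Syp*, *Nsf*, *Napb*, *Syn2*, *Bsn* and *Unc13c*. Without female cKO 1 and male cKO 3, the SD was larger in cKO for 34 genes (81.0%, all genes 55.0%, those at 5 TPM or more 59.9%) and its median was 0.132, and without male cKO 3 alone for 32 (76.2%, all genes 58.9%, those at 5 TPM or more 63.8%). These values are a description, with no test, and this comparison was chosen after the values had been seen.

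Ratios of related release genes within a library do not depend on how the library was scaled, and 10 pairs were compared between 6 cKO and 6 WT libraries by a two-sided exact permutation test over all 924 splits. After adjustment over the 10 pairs, 0 differed. *Slc17a6* was 0.00729 to 0.0153 of *Slc17a7* in WT and 0.00615 to 0.0230 of it in cKO (exact p = 0.942, adjusted p = 1). *Syt2* was 0.0138 to 0.0183 of *Syt1* in WT and 0.0116 to 0.0304 of it in cKO (exact p = 0.576). The largest difference was that of *Rims2* to *Rims1*, with a mean ratio of 0.189 in WT (0.174 to 0.209) and 0.226 in cKO (0.168 to 0.278), a difference of 0.24 on the log2 scale (exact p = 0.0433, adjusted p = 0.433). The ratio was below the WT range in male cKO 1 and above it in the other 5 cKO libraries. Leaving out male cKO 1 gave an exact permutation p with an adjusted value of 0.0433, the only pair and setting that passed. That omission put every remaining cKO ratio above every WT ratio, so the outcome followed from which library was left out and is no support for a difference. *Cplx1* to *Cplx2* was nearly constant in WT, at 0.812 to 0.873, and ranged from 0.707 in male cKO 3 to 1.14 in female cKO 1 (exact p = 0.818).

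Other presynaptic genes were read from the same fit. Of 30 further release genes tested, 0 passed, with 1 higher and 1 lower at an unadjusted p under 0.05 (all genes 4.84% higher and 1.8% lower). The same count was 0 passed, 0 higher and 1 lower among 26 vesicle recycling genes, 0 passed and 1 higher among 20 transporters and other vesicle proteins, and 0 of 9 at either threshold among calcium channel genes. The 3 genes with the smallest unadjusted p were *Slc30a3*, *Syt6* and *Cadps2*. *Slc30a3*, for the zinc transporter ZnT3 of glutamatergic vesicles, held 53.4, 59.3 and 54.5 TPM in the female WT libraries, 76.8, 65.95 and 62.8 TPM in female cKO, 55.6, 58.1 and 58.9 TPM in male WT and 62.1, 61.1 and 70.2 TPM in male cKO. All 6 cKO values were above all 6 WT values (log2 fold change 0.23, SE 0.058, adjusted p = 0.275). Of all genes tested, 0.676% were separated in this way in either direction. *Syt6* was at 3.48 ± 0.413 TPM in WT and 4.70 ± 1.01 TPM in cKO (log2 fold change 0.41, SE 0.14, adjusted p = 0.568), with its highest values in male cKO 3, female cKO 1 and female cKO 2. *Cadps2*, for a priming factor of dense-core vesicles, was at 43.6 ± 3.77 TPM in WT and 37.5 ± 5.29 TPM in cKO (log2 fold change -0.22, SE 0.088, adjusted p = 0.664). All 10 pan-neuronal genes were tested and 0 stood at either threshold, with sums of 2724 to 3051 TPM in WT and 2680 to 3059 TPM in cKO.

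Markers of the cell types and regions that a hippocampal dissection can hold were summed in each library. The 9 markers of CA1 and CA3 pyramidal cells summed to 479 to 634 TPM in WT and 485 to 542 TPM in cKO, the 8 of dentate granule cells to 135 to 180 and 142 to 207 TPM, and the 9 of inhibitory neurons to 916 to 969 and 946 to 1386 TPM. The 1386 TPM were those of male cKO 3, where the sum without *Npy* was 857 TPM, against 802 to 903 TPM in the other 11 libraries. Sums for 15 thalamus and habenula markers were 124 to 165 TPM in WT and 111 to 185 TPM in cKO. In females 4 of the 14 tested stood at an unadjusted p under 0.05, all higher in cKO (3.91% of all genes). Their list had a median log2 fold change of 0.36 there and a smallest adjusted p of 0.671. Astrocyte markers summed to 1359 to 1495 and 1247 to 2351 TPM, the last again in male cKO 3. Without *Gfap* its sum was 1084 TPM (others 1018 to 1219.8). Oligodendrocyte markers summed to 2484 to 5087 and 2841 to 4635 TPM, microglial markers to 292 to 334 and 306 to 364 TPM, and endothelial and blood markers to 548 to 1099 and 601 to 934 TPM. The 10 choroid plexus markers varied most, from 187 to 3554 TPM in WT and from 140.1 to 5280.5 TPM in cKO. Of the genes on these lists, 0 passed between the genotypes with both sexes together. Their part in the values of the release genes was not tested.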

How the data were processed

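Hippocampal RNA of 12 mice had been poly-A selected and sequenced as stranded libraries. The values are TPM in 1 table that the authors deposited, with 1 column for each library, matched to its sample by name. For the reads, the study describes trimming, a filter for ribosomal RNA, the aligner STAR with the build GRCm38, and then Salmon, whereas the submitters' notes name kallisto and mm10, and which tool wrote the table is not given in the sources used here. TPM keeps no depth, so the precision of a low value is unknown, no counting interval is given, and the DESeq2 test of the study, which needs counts, was not run.

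Symbols and coordinates came from GENCODE M21 (25245 of 26409 genes). Groups are those of the labels. The scale of all tests was log2(TPM + 0.1), which understates the change of low genes, and the 18197 genes that averaged 0.1 TPM or more were tested. Tests used limma (version 3.58.1, R 4.3.3), two-sided, with a trended prior variance and Benjamini-Hochberg adjustment over all genes tested, and a pass required both an adjusted p under 0.05 and more than a 1.2-fold change. Both sexes together were fitted as 2 groups of 6, and the comparisons within a sex, of WT sexes and of the interaction as 4 groups of 3 in 1 fit of all 12 libraries. Ratios of gene pairs were compared by exact permutation, with a smallest possible p of 0.00216. Summaries and plots used Python 3.11.15, pandas 2.3.3, numpy 2.4.6, scipy 1.17.1 and matplotlib 3.10.9. The steps were tested on simulated data.

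The release genes, the other gene lists, the pairs and the tests were chosen with earlier results of these data known. Genes named singly are the 12 release genes with the smallest unadjusted p with both sexes together, the 6 most abundant, the members of the 10 pairs, and, among other presynaptic genes, the 3 with the smallest unadjusted p. Genes named for their results in 1 sex, in the interaction or in single libraries were chosen after their values were seen, as was the comparison of spreads. Alternatives were another added value (0.5 or 1 TPM), no filter or a filter at a mean of 1 TPM, 2 other scalings, a constant prior variance, a replicate block, sex as covariate, the libraries of 1 sex alone, and fits without each library, without the 2 libraries of conflicting sex or without the WT libraries named C57. A fit without female cKO 1 and male cKO 3 was added after seeing the data. Replicate numbers did not pair the libraries, since the deviations of libraries with the same number correlated at -0.038 to 0.045. Of the listed genes, *Vamp7* and *Slc18a3* were not analysed here. Of the cortex markers, 1 gene is not reported here.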

Additional observations from a re-analysis of the deposited data

Results flagged for a closer look

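In 84 groups of 6 libraries, the values of 42 genes in each genotype, 7 had a library far from the other 5 by Dixon's criterion, which chance meets in about 1 of 20 groups. In WT, female WT 1 was low for *Stx1a* at 68.5 TPM (others 82.6 to 88.7) and for *Rims1* at 38.4 TPM (others 42.2 to 44.0), and male WT 2 was high for *Rab3c* at 126 TPM (others 105 to 111) and for *Sv2c* at 9.36 TPM (others 7.01 to 7.75). In cKO, male cKO 3 was high for *Sv2c* at 27.2 TPM (others 7.09 to 12.4), for *Sv2b* at 222 TPM (others 162 to 175) and for *Unc13c* at 0.828 TPM (others 0 to 0.257).

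For *Snap25* the 3 female cKO libraries were all above the 3 female WT libraries and the 3 male cKO libraries all below the 3 male WT libraries. The difference between the sexes, tested in limma as an interaction, was -0.20 on the log2 scale with an adjusted p of 0.966. Without the 2 libraries whose sex markers went against their labels it was -0.16, with an adjusted p of 0.58. Those libraries held the highest and the lowest cKO value, female cKO 3 with 1841 TPM and male cKO 1 with 1608 TPM. The former exceeded all 3 male WT libraries and the latter lay below all 3 female WT libraries. Exchanged between the sexes, neither separation would hold. No share of all genes with separations of 3 against 3 libraries was counted beside it.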

How the results depend on the processing

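The number of release genes that passed was 0 in all 5 comparisons under every alternative run. The smallest adjusted p for a release gene over these alternatives was 0.172 with both sexes together, 0.0602 in females, 0.300 in males, 0.137 in the interaction and 0.943 between WT sexes. The replicate block left 2 release genes at an unadjusted p under 0.05 with both sexes together, against 3 without it, 2 in females and 0 in males, and changed no call. Over all genes, 27 passed with both sexes together, 3 with the replicate block, 10 without the C57-named WT libraries, 12 without the 2 libraries of conflicting sex, 11 without female cKO 1 and male cKO 3, and 17 with no filter. With 1 library left out, the count of release genes at an unadjusted p under 0.05 ran from 2 to 5 with both sexes, 1 to 7 in females, 0 to 8 in males and 1 to 10 in the interaction. For both sexes, 754 to 1063 of all genes then stood higher and 268 to 390 lower, against 880 and 328 with every library. With the replicate block it was 846 and 336. All-gene counts by sex and for the interaction are not given here for these alternatives. With 1 library left out, the median of the interaction ran from -0.14 to -0.045, the median between WT sexes from -0.050 to 0.049 (main value 0.014), both at one end without female WT 1, and the number of gene pairs that passed from 0 to 1. Median ratio rescaling moved the all-gene median of the log2 fold change from 0.016 to -0.0005.

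Estimates near 0 changed sign. Without female cKO 1 and male cKO 3 this held for *Slc17a7* (-0.029), *Syt2* (-0.11), *Vamp1* (-0.040), *Cplx1* (-0.019), *Syn1* (-0.039), *Snap25* (-0.0097), *Rab3a* (0.019) and *Sv2a* (0.012). Without the C57-named WT libraries it held for *Snap25* (-0.047), *Slc17a6* (-0.0020), *Cplx2* (0.013), *Unc13a* (0.021) and the ratio of *Slc17a6* to *Slc17a7* (-0.034). Rescaling turned *Snap25* (-0.012) and *Syn1* (-0.015) by median ratio, and *Cplx2* (0.0067) by quantiles. Without the libraries of conflicting sex, *Sv2b* (0.027) and *Rab3b* (0.020) changed sign. With each library left out in turn, the log2 fold change with both sexes ran from -0.011 to 0.028 for *Snap25*, -0.022 to 0.073 for *Slc17a7*, -0.064 to 0.0044 for *Vamp2*, -0.057 to 0.018 for *Rab3a*, -0.12 to 0.19 for *Slc17a6*, -0.14 to 0.18 for *Syt2*, -0.022 to 0.080 for *Vamp1*, -0.024 to 0.067 for *Cplx1*, -0.047 to 0.031 for *Cplx2*, -0.074 to 0.068 for *Syn2*, -0.031 to 0.052 for *Syn1*, -0.086 to 0.0092 for *Sv2b*, -0.056 to 0.029 for *Sv2a*, -0.070 to 0.019 for *Rab3b* and -0.041 to 0.0030 for *Napb*. The difference in log2 ratio ran likewise from -0.11 to 0.042 for *Sv2b* to *Sv2a*, -0.16 to 0.21 for *Slc17a6* to *Slc17a7*, -0.067 to 0.071 for *Syn2* to *Syn1*, -0.037 to 0.055 for *Rab3b* to *Rab3a*, -0.026 to 0.25 for *Syt2* to *Syt1* and -0.054 to 0.085 for *Cplx1* to *Cplx2*. The cause of these changes was not tested.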
